A study of Mus musculus with 2 samples.

Results

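The genes described here set the pace of the G1 phase of the cell cycle: the D cyclins (Ccnd1, Ccnd2 and Ccnd3), their kinases (Cdk4 and Cdk6) and 5 inhibitors of those kinases (Cdkn1a, Cdkn1b, Cdkn1c, Cdkn2a and Cdkn2c). They were chosen by symbol, and all 10 were found among the 55487 genes listed in each of the 2 deposited tables. RNA had been sequenced from pancreatic islet beta cells, the insulin-secreting cells, sorted by FACS from mice 2 months old, males and females pooled. The genotype was MytF/F; Myt2F/F; Myt3F/F with RipCre, that is, floxed alleles of 3 myelin transcription factor genes (Myt1, Myt1l and St18 in the tables) together with a Cre recombinase that the rat insulin promoter drives. Both libraries were mutant and formed 1 group. Control cells were not analysed here, so no value below compares mutant with control cells. Library 2 carries the word duplicate in its label, and whether it came from other mice or another sort is not stated there. Differences between the libraries therefore show only the spread between these libraries, which may be technical.

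D cyclins bind CDK4 or CDK6, and the complexes phosphorylate the retinoblastoma protein, which frees E2F factors to switch on genes of DNA replication. INK4 proteins such as those of Cdkn2a and Cdkn2c bind CDK4 and CDK6 and keep D cyclins off them. Cip/Kip proteins, the products of Cdkn1a, Cdkn1b and Cdkn1c, bind cyclin-CDK complexes and block mainly those of CDK2. In mice, beta cells depend on Ccnd2 and Cdk4 for their growth after birth, and loss of Cdk4 leads to diabetes.

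The libraries held 50121771 and 39003197 counted reads. Ins1 and Ins2 together took 16.1% and 16.4% of them, and the 9 beta-cell markers were all detected. The 3 targeted genes stood between 44.5 and 77.6 CPM (reads per 1000000 counted) in library 1 and between 39.0 and 65.4 CPM in library 2. A count over a whole gene does not show whether the floxed part was deleted. Libraries differed far more than sampling allows, with a chi-square of homogeneity of 28.6 per degree of freedom over 20681 genes, so they were kept as 2 samples. Acinar markers added up to 136 and 621 CPM in libraries 1 and 2, and 21 genes of the interferon-gamma response summed to 268 and 884 CPM.

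Levels of the 10 genes spanned more than 3 orders of magnitude. TPM (transcripts per 1000000) is the length-scaled unit used here to compare genes with one another. For the 10 genes the length was that of all annotated exons merged, not of the transcripts expressed. Comparisons between genes depend on that length. By mean TPM the order was Ccnd2, Cdk4, Cdkn1b, Cdkn1a, Ccnd3, Cdkn2c, Ccnd1, Cdkn2a, Cdkn1c and Cdk6. The highest exceeded the lowest 2078-fold in library 1 and 3238-fold in library 2. At 1 CPM or more in both libraries, 9 of the 10 were detected, Cdk6 being the exception. The median of the 10 mean levels was 11.4 TPM, beside 14.8 TPM over the 13566 genes detected. Of the 9 neighbouring pairs in the order, 8 were apart: the TPM ranges of the libraries did not overlap and the exact 95% interval of the ratio lay above 1 in each library. The exception was Ccnd1 and Cdkn2a, which changed places. Ccnd1 over Cdkn2a was 0.858-fold in library 1 (95% interval 0.699 to 1.06) and 1.98-fold in library 2 (1.56 to 2.55). The intervals cover counting error only, not reads in stretches shared with other genes. In library 2, Cdkn1b over Cdkn1a was only 1.08-fold and Cdkn2c over Ccnd1 only 1.20-fold. Exons of Cdkn1a and Ccnd1 overlap other genes over 7.68% and 23.4% of their length, so these places in the order are less certain.

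**Figure D1:**
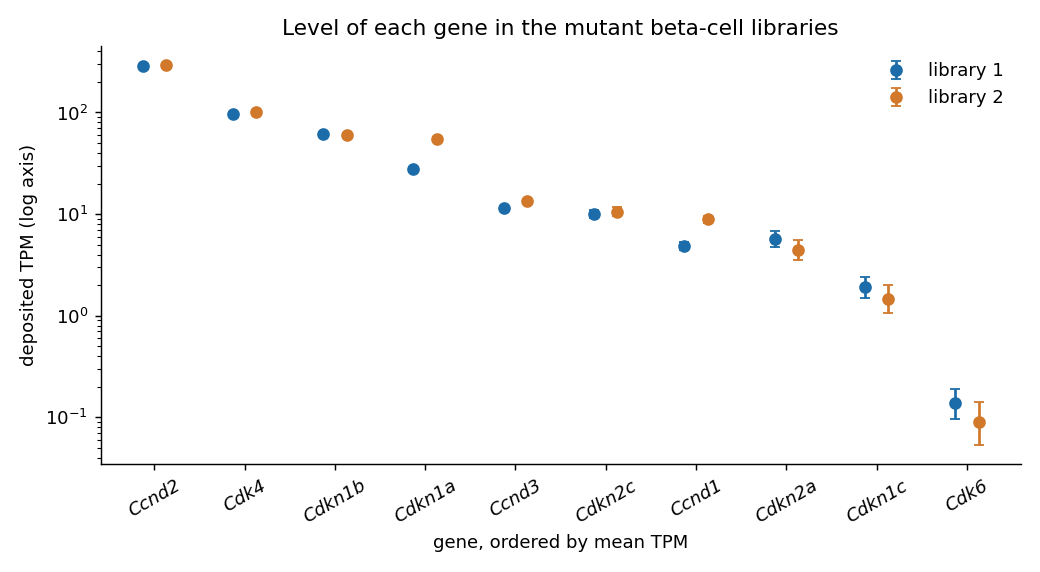
Deposited TPM (log axis) of the 10 genes in library 1 (left point) and library 2 (right point) of mutant beta cells, ordered by mean, with bars for the exact 95% counting interval. Ccnd2 stood highest at 286 and 291 TPM and Cdk6 lowest at 0.138 and 0.0898 TPM, and the points of Cdkn1a and Ccnd1 are the most widely separated among the genes above 2 TPM.

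Among the D cyclins, Ccnd2 supplied nearly all of the RNA. Ccnd2 had 48920 reads in library 1 and 39204 in library 2, which are 976 CPM (95% interval 967 to 985) and 1005 CPM (995 to 1015). Scaled by length this was 286 and 291 TPM, a mean of 288 ± 3.61 TPM (SD, n = 2), rank 209 of all genes listed and above 98.5% of the genes detected. Its coefficient of variation in TPM between the libraries was 1.25%, the smallest of the 10 genes, although in CPM that of Cdkn1b was smaller. Ccnd2 (ENSMUSG00000000184) occupies chr6:127125162-127152193, minus strand, with 7 merged exons of 9409 bases in all (GRCm38, GENCODE M21).

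Ccnd3, a D cyclin found in many adult tissues, had 1840 reads (36.7 CPM, 95% interval 35.1 to 38.4) in library 1 and 1682 reads (43.1 CPM, 41.1 to 45.2) in library 2. Its mean was 12.5 ± 1.31 TPM (SD, n = 2). Ccnd1, the D cyclin that many growth factors induce, had 417 reads (8.32 CPM, 7.54 to 9.16) in library 1 and 597 reads (15.3 CPM, 14.1 to 16.6) in library 2. Its mean was 6.86 ± 2.82 TPM, and library 1 was the lower one. Ccnd3 (ENSMUSG00000034165) occupies chr17:47505051-47599691 (plus strand) and Ccnd1 (ENSMUSG00000070348) chr7:144929931-144939925 (minus strand). The exons of Ccnd1 overlap those of LTO1, on the opposite strand, over 1100 bases, 23.4% of its exon length. LTO1 had 1005 and 768 reads. The library kit does not mark strand, so reads in that overlap cannot be told apart and the count of Ccnd1 is uncertain.

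In TPM, Ccnd2 made up 94.6% of the D-cyclin sum in library 1 and 92.9% in library 2, a mean of 93.7 ± 1.18% (SD, n = 2). Ccnd3 made up 3.81% and 4.27%, and Ccnd1 made up 1.61% and 2.83%. Ccnd2 exceeded Ccnd3 24.8-fold in library 1 (95% interval 23.7 to 26.0) and 21.7-fold in library 2 (20.7 to 22.8). Ccnd3 exceeded Ccnd1 2.37-fold in library 1 (2.13 to 2.64) and 1.51-fold in library 2 (1.38 to 1.66). The order Ccnd2, Ccnd3, Ccnd1 thus held in both libraries, while the distance between Ccnd3 and Ccnd1 differed.

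**Figure D2:**
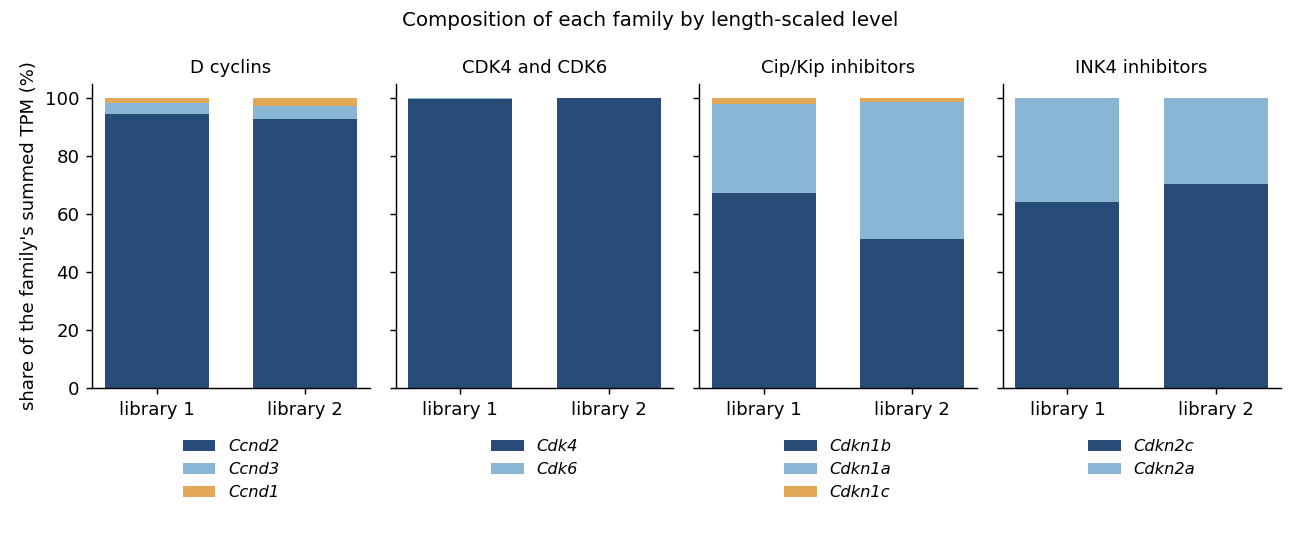
Share of each gene (%, stacked bars from 0) in the summed TPM of its family, in library 1 (left bar) and library 2 (right bar). Ccnd2 took 94.6% and 92.9% of the D cyclins and Cdk4 over 99% of its pair, while Cdkn1a took 30.5% of the Cip/Kip sum in library 1 and 47.5% in library 2.

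Of the kinases, Cdk4 was abundant and Cdk6 was below the detection limit of 1 CPM. Cdk4 had 5764 reads (115 CPM, 95% interval 112 to 118) in library 1 and 4678 reads (119.9 CPM, 116.5 to 123.4) in library 2. Its mean was 99.0 ± 2.12 TPM (SD, n = 2), above 93.2% of the genes detected. Cdk6 had 35 reads (0.698 CPM, 0.486 to 0.971) in library 1 and 18 reads (0.462 CPM, 0.274 to 0.729) in library 2, where 3 reads, the limit that a count of 0 allows, are 0.0599 and 0.0769 CPM. Its mean was 0.114 ± 0.0337 TPM. Both intervals of Cdk6 end below 1 CPM and lie above those 3 reads. Cdk4 exceeded Cdk6 709-fold in library 1 (95% interval 509 to 1019) and 1119-fold in library 2 (707 to 1890).

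The few reads of Cdk6 stood beside low markers of non-epithelial cells. The 8 endothelial markers summed to 30.8 and 22.6 CPM, the 9 mesenchymal ones to 16.6 and 10.9 CPM and the 10 immune ones to 52.99 and 44.3 CPM in libraries 1 and 2. No marker of these lists was at 0 in both libraries, and the leukocyte gene Ptprc had 0.878 and 0.487 CPM. All 3 sums were lower in library 2, but most of the immune sum was C1qa, with 39.1 and 35.3 CPM. Of the 8 endothelial markers, 6 were higher in library 1 and 2 in library 2. Cdk6 itself did not differ between the libraries (adjusted p = 0.317, exact binomial test). The part of such cells in the reads of Cdk6 was not tested. In bulk RNA, fewer cells of a type and less RNA per cell cannot be told apart.

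Cdk4 (ENSMUSG00000006728) occupies chr10:127063534-127067920, plus strand, with 6 merged exons, of which 641 bases (19.7%) overlap Tspan31 on the opposite strand. Tspan31 had 2521 and 2160 reads, so reads in that stretch are uncertain. Cdk6 (ENSMUSG00000040274) occupies chr5:3341485-3531008, plus strand, with 9 merged exons.

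The 250 bases before the RefSeq start sites of the kinases (GRCm38.p6) are shown because these paralogs differed most in level among the fixed pairs. Capitals mark the GC box GGGCGG, the TATA box TATAAA and the E box CACGTG, the last being the site of Myc and related factors, on either strand. The window of Cdk4 is chr10:127063285-127063534 and that of Cdk6 is chr5:3343643-3343892, both on the plus strand.
Cdk4: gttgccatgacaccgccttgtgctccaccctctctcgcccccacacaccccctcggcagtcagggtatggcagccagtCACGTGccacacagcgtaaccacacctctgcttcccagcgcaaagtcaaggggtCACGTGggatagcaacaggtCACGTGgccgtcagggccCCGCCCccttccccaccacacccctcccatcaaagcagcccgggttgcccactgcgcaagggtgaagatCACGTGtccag
Cdk6: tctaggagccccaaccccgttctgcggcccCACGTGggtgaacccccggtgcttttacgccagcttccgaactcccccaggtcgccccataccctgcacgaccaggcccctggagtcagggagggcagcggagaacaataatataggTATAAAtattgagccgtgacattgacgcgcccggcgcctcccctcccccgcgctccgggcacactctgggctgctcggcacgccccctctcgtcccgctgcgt
The window of Cdk4 held 4 E boxes, which do not overlap, and 1 GC box. That of Cdk6 held 1 E box and 1 TATA box. An E box of these letters occurred in 6.02% of the 32851 windows in the RefSeq table, a GC box in 32.7% and a TATA box in 12.4%. These matches are letters in a window and not evidence of binding.

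The Cip/Kip inhibitors Cdkn1b and Cdkn1a were well expressed, and Cdkn1a differed between the libraries. Cdkn1b encodes p27, which holds cells in quiescence. It had 5089 reads (101.5 CPM, 95% interval 98.8 to 104.4) in library 1 and 3887 reads (99.7 CPM, 96.6 to 102.8) in library 2, a mean of 60.5 ± 1.30 TPM (SD, n = 2). Cdkn1a encodes p21, a target of p53 that stress signals also induce. It had 1800 reads (35.9 CPM, 34.3 to 37.6) in library 1 and 2808 reads (72.0 CPM, 69.4 to 74.7) in library 2, a mean of 41.5 ± 19.3 TPM. Cdkn1b was thus level across the libraries, while Cdkn1a was the most variable of the 10 genes by coefficient of variation, at 46.6%.

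Cdkn1b exceeded Cdkn1a 2.21-fold in library 1 (95% interval 2.09 to 2.33) and 1.08-fold in library 2 (1.03 to 1.13). Cdkn1c encodes p57 and is imprinted, expressed from the maternal allele. It had 71 reads (1.42 CPM, 1.11 to 1.79) in library 1 and 43 reads (1.10 CPM, 0.798 to 1.49) in library 2, a mean of 1.69 ± 0.312 TPM (SD, n = 2). In library 2 the interval of Cdkn1c reaches below the detection limit of 1 CPM. Cdkn1a exceeded Cdkn1c 14.5-fold in library 1 (11.5 to 18.7) and 37.5-fold in library 2 (27.7 to 51.9).

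Cdkn1b (ENSMUSG00000003031) occupies chr6:134920401-134925513 (plus strand) and shares no 50-base word with transcripts of other genes. Cdkn1a (ENSMUSG00000023067) occupies chr17:29090976-29100727 (plus strand) and shares 8.49% of its words with other transcripts. The exons of Cdkn1a overlap AC167363.2, on the opposite strand, over 273 bases (7.68%), and AC167363.2 had 25 and 26 reads. Cdkn1c (ENSMUSG00000037664) occupies chr7:143458339-143461050 (minus strand). Its exons overlap the antisense gene Gm44732 over 625 bases, 30.7% of their length, and Gm44732 had 0 reads in both libraries. How reads in an overlap were counted is not stated, so the count of Cdkn1c is uncertain too.

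The windows before the start sites of these inhibitors are shown because one gene was level between the libraries and the other was not. Cdkn1a has 2 RefSeq start sites, with windows chr17:29090729-29090978 (upstream) and chr17:29093519-29093768 (downstream), and the window of Cdkn1b is chr6:134920151-134920400, all on the plus strand. Capitals mark the GC box, the box of letters CCAAT and the letters ACATGT, a core that p53 half-sites can hold, on either strand.
Cdkn1a upstream: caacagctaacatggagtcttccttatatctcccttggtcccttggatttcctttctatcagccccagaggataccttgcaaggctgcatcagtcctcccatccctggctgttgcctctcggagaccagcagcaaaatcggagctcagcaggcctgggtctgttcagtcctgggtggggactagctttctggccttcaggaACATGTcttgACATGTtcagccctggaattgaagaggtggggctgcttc
Cdkn1a downstream: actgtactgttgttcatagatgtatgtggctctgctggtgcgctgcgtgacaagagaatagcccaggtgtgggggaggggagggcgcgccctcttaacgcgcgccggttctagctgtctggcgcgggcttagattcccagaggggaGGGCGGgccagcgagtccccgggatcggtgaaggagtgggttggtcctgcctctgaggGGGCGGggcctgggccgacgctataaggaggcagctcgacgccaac
Cdkn1b: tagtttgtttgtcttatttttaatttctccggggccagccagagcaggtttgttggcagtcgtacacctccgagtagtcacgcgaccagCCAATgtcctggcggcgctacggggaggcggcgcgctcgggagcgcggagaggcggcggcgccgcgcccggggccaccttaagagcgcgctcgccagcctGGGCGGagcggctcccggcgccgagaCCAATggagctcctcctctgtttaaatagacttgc
The upstream window of Cdkn1a held 2 matches to ACATGT, the nearer beginning 39 bases before the start site. A match to these letters occurred in 4.58% of all windows. The downstream window held 2 GC boxes and no ACATGT, and the window of Cdkn1b held 1 GC box and 2 CCAAT boxes, a motif found in 33.8% of all windows. The core AAGTT, which zinc fingers of the Myt family bind, occurred in 1 of the 11 windows of the 7 genes with an entry, the second of Ccnd3, and in 35.3% of all windows. Gene counts do not show from which start site the reads of Cdkn1a came.

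Of the INK4 inhibitors, Cdkn2c exceeded Cdkn2a. Cdkn2c encodes p18, whose gene is activated together with Cdkn1b by menin in endocrine cells of mice. It had 495 reads (9.88 CPM, 95% interval 9.02 to 10.8) in library 1 and 407 reads (10.4 CPM, 9.45 to 11.5) in library 2, a mean of 10.4 ± 0.317 TPM (SD, n = 2). Cdkn2a encodes p16 and, from another first exon and in another reading frame, p19ARF, and its level in mouse islets is known to rise with age. It had 121 reads (2.41 CPM, 2.003 to 2.88) in library 1 and 75 reads (1.92 CPM, 1.51 to 2.41) in library 2, a mean of 5.07 ± 0.854 TPM. Cdkn2c exceeded Cdkn2a 1.79-fold in library 1 (1.46 to 2.20) and 2.37-fold in library 2 (1.85 to 3.07), and the intervals overlap.

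Cdkn2c (ENSMUSG00000028551, from 109660876 to 109667189) and Cdkn2a (ENSMUSG00000044303, from 89274471 to 89294653) both lie on the minus strand of chromosome 4. Neither shares a 50-base word with transcripts of other genes. Cdkn2a has 2 RefSeq start sites, with the 250 bases before them at chr4:89294620-89294869 and chr4:89282193-89282442, so the count of this gene sums products of both. The first of these windows, which has 78.4% G and C, held 2 GC boxes, and the second, with 60.0%, held none of the 6 motifs searched.

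Summed by family, D cyclins reached 302 TPM in library 1 and 313 TPM in library 2, the kinases 97.7 and 101 TPM, the Cip/Kip inhibitors 91.2 and 116 TPM and the INK4 inhibitors Cdkn2a and Cdkn2c 15.8 and 15.0 TPM. D cyclins over kinases was 3.09 in library 1 and 3.11 in library 2. D cyclins over the 5 inhibitors was 2.82 in library 1 and 2.38 in library 2, the inhibitors summing to 107 and 131 TPM. These 5 leave out Cdkn2b and Cdkn2d, with means of 20.6 and 14.5 TPM, and adding them would lower the ratio. The Cip/Kip sum exceeded that of Cdkn2a and Cdkn2c 5.77-fold in library 1 and 7.73-fold in library 2. With the other INK4 genes, Cdkn2b and Cdkn2d, added, the INK4 sum was 50.5 TPM in both libraries, and the Cip/Kip sum exceeded it 1.81-fold in library 1 and 2.30-fold in library 2. Ratios that hold Cdkn1a differed between the libraries, while that of cyclins to kinases was nearly the same. These are ratios of RNA and not of protein.

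Between the libraries, 1 of the 10 genes was called different. The exact binomial test compared each gene's reads with the library totals, with p adjusted by Benjamini-Hochberg across 20681 genes (10 reads or more summed), and a call needed an adjusted p under 0.05 and a ratio of 2-fold or more. By this rule 892 genes were called, 4.31% of those tested, so 1 of 10 is no result about the group as a whole. The called gene was Cdkn1a, with the 35.9 and 72.0 CPM given above for libraries 1 and 2 and a log2 ratio of library 1 over library 2 of −1.003 (exact binomial test, adjusted p = 9.27e-119). The ratio lies almost on the 2-fold line. Of the 9286 genes that averaged at least 10 CPM, 1.03% were called, and 99.0% had a smaller log2 ratio in size than Cdkn1a.

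Ccnd1 came next, at a log2 ratio of −0.88 (exact binomial test, adjusted p = 1.46e-20), which is short of 2-fold. With a 1.5-fold minimum it was called too, where 8.05% of all genes were. Ccnd3 and Ccnd2 had adjusted p of 1.47e-05 and 9.49e-05 in the exact binomial test at log2 ratios of −0.23 and −0.04, differences too small for a call. An adjusted p under 0.05 alone was reached by 4 of the 10 genes, and by 32.4% of all genes tested, so at this depth it marks small differences between libraries. The remaining 6 genes (Cdk4, Cdk6, Cdkn1b, Cdkn1c, Cdkn2a and Cdkn2c) did not reach it, with adjusted p from 0.0902 for Cdk4 to 0.608 for Cdkn2c (exact binomial test). Cdk4 did reach it with TMM scaling (adjusted p = 0.00149, log2 ratio −0.10) and with DESeq2 size factors (0.00130, −0.10), and its adjusted p over all settings ran to 0.152. The median size of the log2 ratio was 0.28 for the 10 genes, beside 0.21 for all genes tested. The test compares the reads of 2 libraries and not conditions.

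**Figure D3:**
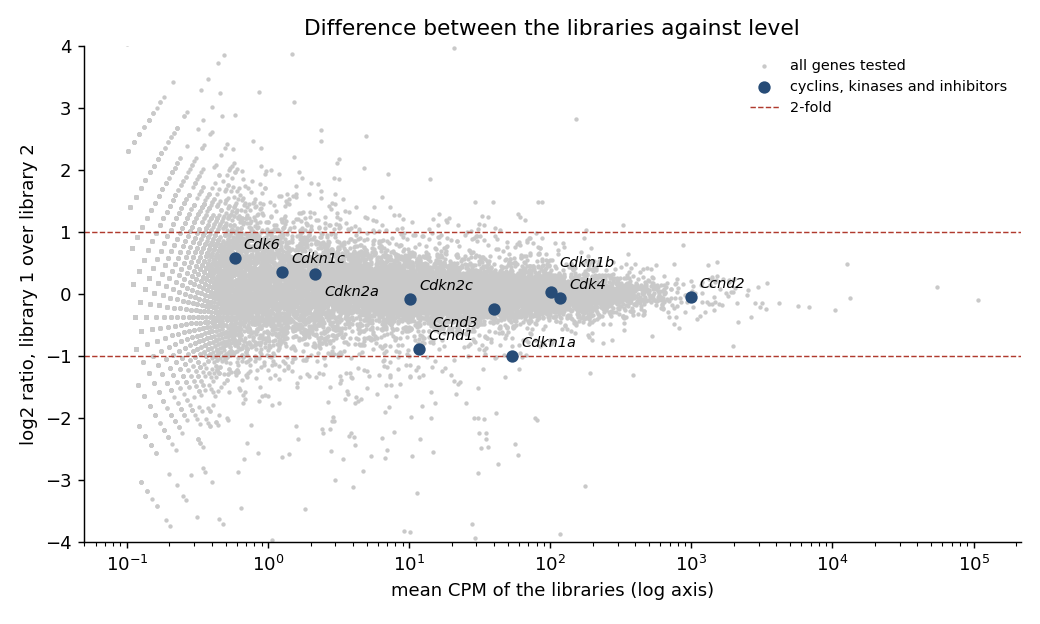
Log2 ratio of library 1 over library 2 against mean CPM (log axis) for all 20681 genes tested (grey; 73 lie outside the axis) and the 10 genes (blue, labelled), with dashed lines at 2-fold. Cdkn1a, at −1.003, lies on the lower line, Ccnd1 is at −0.88, and Cdkn1b, Cdk4 and Ccnd2 lie close to 0.

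Several gene groups differed in the same direction as Cdkn1a and Ccnd1, lower in library 1 than in library 2. Of the 21 genes of the interferon-gamma response, 20 were tested, all 20 were lower in library 1 and 15 were called (median log2 ratio −1.67). Among the called genes were Iigp1, Igtp, Irgm2, Gbp4, Tap1, Gbp2, Irgm1, Psmb8, Psmb9, Gbp6, Cxcl10, Nlrc5, Gbp5 and Gbp3. Iigp1, Irf1 and Igtp were the highest of this list by TPM, and Ciita, at 0.543 ± 0.205 TPM (SD, n = 2), the lowest detected. Irf1, a transcription factor that interferon induces, stood at 45.5 and 89.5 CPM in libraries 1 and 2.

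Of the 15 acinar markers, 12 were detected, and all 13 that were tested were called lower in library 1 (median −2.23). The highest was the chymotrypsin gene Ctrb1 with 31.2 and 124 CPM in libraries 1 and 2, and Prss1 had 0 reads in both. Ductal markers added up to 885 and 1230 CPM in libraries 1 and 2, with none of 7 called. Most of this sum was Spp1, with 659 and 967 CPM in libraries 1 and 2. Krt19 had only 2.17 and 4.23 CPM and Sox9 0.479 and 0.718 CPM. The sums of alpha and delta markers were 1401 and 1660 CPM in library 1 and 1158 and 1247 CPM in library 2. Most of the delta sum was Sst, with 1515 and 1100 CPM in libraries 1 and 2, while Lepr, with 6.92 and 23.4 CPM, was the only delta marker called and was lower in library 1. PP-cell markers summed to 979 and 1215 CPM and glial ones to 46.3 and 40.4 CPM in libraries 1 and 2. Highest in the ductal, alpha, delta and PP-cell lists by mean CPM were Spp1 (813 CPM), Slc7a2 (451 CPM), Sst (1307 CPM) and Ppy (755 CPM), and in the endothelial, mesenchymal and immune lists Esam (12.6 CPM), Col3a1 (2.86 CPM) and C1qa (37.2 CPM). The part of interferon signalling or of acinar RNA in the difference of Cdkn1a and Ccnd1 was not tested.

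Genes known as p53 targets were described because Cdkn1a is one. All 13 genes of this list, p53 itself (Trp53) included, were detected, and none was called, while 9 were lower in library 1 (median log2 ratio −0.23). Over all 20681 genes tested, 9016 were lower in library 1 (median 0.04). Highest were Ccng1 at 90.7 ± 19.0 TPM, Trp53inp1 at 72.4 ± 9.75 TPM and Sesn2 at 56.2 ± 0.963 TPM (SD, n = 2), and lowest was Eda2r at 1.24 ± 0.548 TPM. The log2 ratio of library 1 over library 2 was −0.95 for Eda2r, −0.78 for the nuclease gene Aen, −0.45 for Ccng1 and −0.29 for Trp53inp1, with adjusted p of 7.08e-06, 6.24e-40, 3.35e-53 and 8.52e-34 (exact binomial test). It was −0.05 for Mdm2, whose product limits p53, and 0.13 for Trp53, with adjusted p of 0.302 and 0.0645 in that test. Immediate-early genes, 9 of 9 detected, had a median log2 ratio of 0.03 and none was called. Their highest were Fos at 2878 ± 7.41 TPM, Jun at 1632 ± 39.8 TPM and Btg2 at 1556 ± 103 TPM, and their lowest was Myc at 19.6 ± 3.68 TPM.

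**Figure D4:**
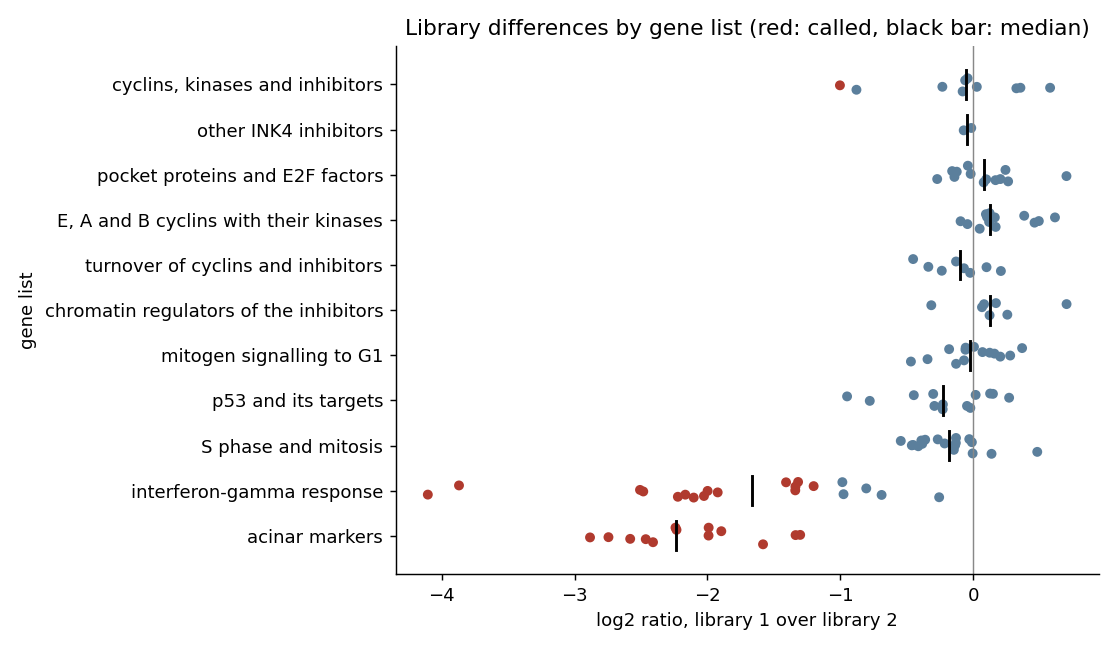
Log2 ratio of library 1 over library 2 for the genes of each list (1 point a gene, spread vertically for visibility), with called genes in red and the list's median as a black bar. Points of the 8 pathway lists lie around 0 with none called, while the interferon-gamma and acinar lists have medians of −1.67 and −2.23.

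Around the 10 genes, most genes of the G1 pathway were detected and none was called between the libraries. The 8 pathway lists held 90 genes, of which 89 were matched, 78 were detected and 88 were tested. None of the 88 was called, beside 4.31% of all genes tested and 1.03% of those averaging at least 10 CPM, as 53 of the 88 did. An adjusted p under 0.05 alone was reached by 38 of the 88, beside 6699 of all 20681 genes tested (32.4%). The median size of the log2 ratio over the 88 was 0.16, beside 0.21 for all genes tested. The other INK4 genes, Cdkn2b and Cdkn2d, stood at 20.6 ± 0.549 and 14.5 ± 0.0166 TPM (SD, n = 2), each above Cdkn2c and Cdkn2a.

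The substrates and effectors of the cyclin D kinases were detected in 12 of 13 cases. The repressive E2F factors E2f4 and E2f5 led with 53.2 ± 0.0653 and 33.9 ± 3.06 TPM (SD, n = 2), followed by their partner Tfdp1 with 30.1 ± 0.345 TPM. The retinoblastoma gene Rb1 had 20.1 ± 1.13 TPM and E2f7, the lowest detected, had 0.852 ± 0.296 TPM. Of the E, A and B cyclins with their kinases, phosphatases and activating kinase, 10 of 14 passed the detection limit, and the median of the list was 3.16 TPM. Its highest members were Ccnh (43.3 ± 1.39 TPM), whose product belongs to the CDK-activating kinase, the phosphatase gene Cdc25a (18.8 ± 0.245 TPM) and Cdk7 (17.8 ± 0.682 TPM). Cdk1, the mitotic kinase, was the lowest detected at 0.786 ± 0.0705 TPM.

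Replication and mitosis genes, the output of E2F, were detected in 13 of 18 cases, with a list median of 2.20 TPM. Pcna stood out at 44.3 ± 8.08 TPM (SD, n = 2), followed by the replicative helicase genes Mcm2 (12.6 ± 1.22 TPM) and Mcm4 (11.7 ± 0.645 TPM), and the mitotic kinase gene Plk1 was the lowest detected (1.62 ± 0.352 TPM). Of the 18, 16 were lower in library 1, none of them called, with a median log2 ratio of −0.18. Of all 20681 genes tested, 9016 were lower in library 1, and the median was 0.04. Genes for the turnover of cyclins and inhibitors were led by Cul1 (66.9 ± 0.208 TPM), Cks1b (44.3 ± 9.38 TPM) and Gsk3b (43.9 ± 4.84 TPM), whose kinase marks D cyclins for export and destruction. Skp2, the ubiquitin ligase subunit that recognises p27, was the lowest there at 0.9497 ± 0.149 TPM.

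Chromatin regulators of the inhibitor genes were detected in 6 of 7 cases. Bmi1, a Polycomb repressor of Cdkn2a, had 79.2 ± 3.81 TPM, the demethylase gene Kdm6b had 52.0 ± 4.78 TPM and Men1, which encodes menin, had 51.7 ± 2.1 TPM (SD, n = 2). Ezh2, the Polycomb methyltransferase that silences Cdkn2a in young beta cells, was the lowest detected at 3.13 ± 0.215 TPM. All 14 genes of mitogen signalling were detected. The prolactin receptor gene Prlr led with 294 ± 23.7 TPM, close to Ccnd2 in level, followed by Irs2 (196 ± 31.3 TPM) and Akt1 (185 ± 4.77 TPM). Foxm1, a driver of mitotic genes, was the lowest at 0.910 ± 0.0171 TPM.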

How the data were processed

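RNA was measured in 2 libraries of sorted mutant beta cells. The authors deposited raw read counts per gene, TPM and CPM, per the file headers. Per the submitters' processing notes, the tools were cutadapt 2.10, STAR 2.7.8a and featureCounts 2.0.2 and the build GRCm38.p6; for their parameters and strand setting, the sources used here give nothing. The deposited CPM equalled the count divided by the library total, scaled up. The gene length that the deposited TPM implies matched the merged exons of GENCODE M21 for the 10 genes and, within 1%, for 98.3% of 16229 genes. The identifier with most reads kept a symbol listed more than once.

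Ratios between genes used length-scaled counts with exact Clopper-Pearson 95% intervals, which cover counting error only. Libraries were compared with an exact two-sided binomial test (scipy 1.17.1), 0.5 read being added for ratios. The test was tried on simulated counts that varied by sampling alone. Since the real libraries differ by more than sampling, that trial does not show how the test behaves on them. edgeR's quasi-likelihood test and DESeq2's test need a second group and were not run. Scaling factors came from edgeR 4.0.16 and DESeq2 1.42.0. edgeR also gave a common dispersion of 0.034 between the libraries, a coefficient of variation of 0.184. The binomial test did not use this spread, so its p covers the sampling of reads only. Alternatives covered scaling, filter, fold, added reads, detection limit and length scaling. Named genes were the 10 genes and, of each list, the 3 highest and the lowest detected by TPM and all called (of marker lists, the highest by CPM), of which 2 are not reported here; Irf1, Aen, Lepr, Mdm2, Trp53, Rb1, Ptprc and Prss1 were added after their values were seen, as were the motifs CACGTG and ACATGT. Genes and lists were chosen with earlier results of these data known. RefSeq promoter windows of GRCm38.p6 matched 7 of the 10 genes; of the list genes, Skp1a was not matched.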

Additional observations from a re-analysis of the deposited data

How the results depend on the processing

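The call of Cdkn1a held under all 7 alternatives to the test. The log2 ratio of library 1 over library 2 lay between −1.05 and −1.003, with adjusted p between 1.89e-129 and 1.59e-118 (exact binomial test). None of the 7 used TPM, in which Cdkn1a stood at 27.8 and 55.2 in libraries 1 and 2, just short of 2-fold. A 1.5-fold minimum gave 2 calls among the 10 genes, Ccnd1 being the second, and 1664 calls over all genes, since that minimum admits smaller ratios. Raising the filter to 50 reads gave 531 calls over 15363 genes tested, which is 3.46%, beside 4.31% with the main filter. TMM and DESeq2 scaling gave 865 and 863 calls, of which 441 and 437 were higher in library 1, beside 497 of 892. Without length scaling the share of Ccnd2 among D cyclins was 95.05%, beside 92.9% to 94.6% in TPM with either library taken alone. Of 8 fixed pair ratios, 5 then moved by more than the SD of the libraries, with none turning round. These pairs leave out some close neighbours in the order of levels. By mean CPM, Ccnd1 (11.8) stood above Cdkn2c (10.2). In library 1, Ccnd3 (36.7 CPM) stood above Cdkn1a (35.9 CPM). At 5 CPM, 7 of the 10 genes were detected. No paired analysis was possible because there is 1 group. With 2 libraries, the spread has 1 degree of freedom, and the low counts of Cdk6, Cdkn1c and Cdkn2a limit what could be seen: their intervals overlap between libraries.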
